A study of Drosophila melanogaster with 15 samples.

Results

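The genes described here were lower on every array of ethanol-exposed flies than on every array of unexposed flies. They were chosen from measured values, by a rule on the Signal intensity of each probe set, a group of short oligonucleotides that reads 1 transcript or a few related ones. A probe set was taken if it had 1 annotated gene symbol, a Signal that averaged 50 or more across the 15 arrays, and a highest Signal over the 10 exposed arrays below the lowest Signal over the 5 control arrays. Odorant-binding, cytochrome P450, glutathione S-transferase, UDP-glycosyltransferase and ribosomal protein genes whose symbols start with Obp, Cyp, Gst, Ugt, RpL or RpS were left out by name. Of the 10478 probe sets with 1 symbol and that mean Signal, 33 passed, and they belong to 33 genes. Since the rule used the difference between exposed and control arrays, that difference is given below as a description, and only the difference between the exposures was tested.

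RNA came from whole males of the isogenic Canton-S B strain, 3 to 5 days old, collected in pools. Flies of the 2nd exposure group had passed once through the inebriometer, a vertical tube filled with ethanol vapor where intoxicated flies lose their footing and drop out at the bottom, had recovered for 2 h, and were collected after passing through it again. Flies of the 1st exposure group were collected right after 1 passage, and control flies met no ethanol. By the study's methods, exposed pools held only flies that dropped out around the peak time of that passage, which was later for the 2nd. Control flies were not chosen in this way. The number of passages thus goes together with time in the vapor and time of collection. Each treatment had 5 arrays, each read a separate pool, and by the study's methods the pools of a replicate were drawn from the same starting flies.

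Fruit flies smell with neurons housed in hairs of the antenna and the maxillary palp. Odorant receptors reach the membrane of these neurons together with a common coreceptor, Orco, while support cells secrete binding proteins that carry odorants through the fluid of the hair and enzymes that break odorants down. A further group of genes below serves the secretory pathway, in which proteins enter the endoplasmic reticulum (ER), receive sugar chains and travel to the Golgi.

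The deposited values are linear, and the trimmed mean Signal was 500 on each array. Median Signal was 138.8 to 142.1 on 2nd exposure arrays, 130.1 to 132.8 on 1st exposure arrays and 136 to 139.3 on control arrays. Summed over 14 testis markers, Signal was 47685 to 56938 on 2nd exposure arrays, 48038 to 62272 on 1st exposure arrays and 51055 to 59097 on control arrays. Replicate 5 of the 2nd exposure stood apart from its label of males. Yolk protein genes Yp1, Yp2 and Yp3 read 2521, 1669.5 and 1660.8 there, against at most 72.9, 94.8 and 147 on the other 14 arrays. Values without that array are given where a result rests on it. Leaving out an exposed array can only relax the rule, and 35 genes met it without that one. In whole-body RNA, fewer cells of a type and less RNA per cell cannot be told apart.

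The rule without its exclusions was met by 40 probe sets, 0.382% of those eligible, and the same rule turned round, exposed above control, was met by 58, or 0.554%. In the fit across 13809 probe sets with limma (Benjamini-Hochberg adjusted p under 0.05), 22 of the 33 genes were called lower after the 2nd exposure, where 1.21% of all probe sets were called lower, 2.42% higher and 3.63% either way. After the 1st exposure 11 were called lower, where 0.188% of all probe sets were called lower, 0.174% higher and 0.362% either way. Without replicate 5 of the 2nd exposure, 18 and 10 of the 33 were called lower after the 2nd and the 1st exposure. Of all 13809 probe sets, 135 and 20 then were, against 167 and 26 with all arrays. The rule used these contrasts, so the counts are a description. The median log2 difference from control over the 33 genes was -0.35 after the 2nd exposure and -0.35 after the 1st, beside -0.00 and -0.02 over all probe sets tested. The sizes were uneven. Averaged over both exposures, 9 genes lay more than 2-fold below control and 24 less than 2-fold. The first 9 had 21.2% to 49.8% of the control mean after the 2nd exposure and 16.8% to 48.1% after the 1st. The median of the other 24 was 81.0% after the 2nd exposure and 83.2% after the 1st.

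**Figure D1:**
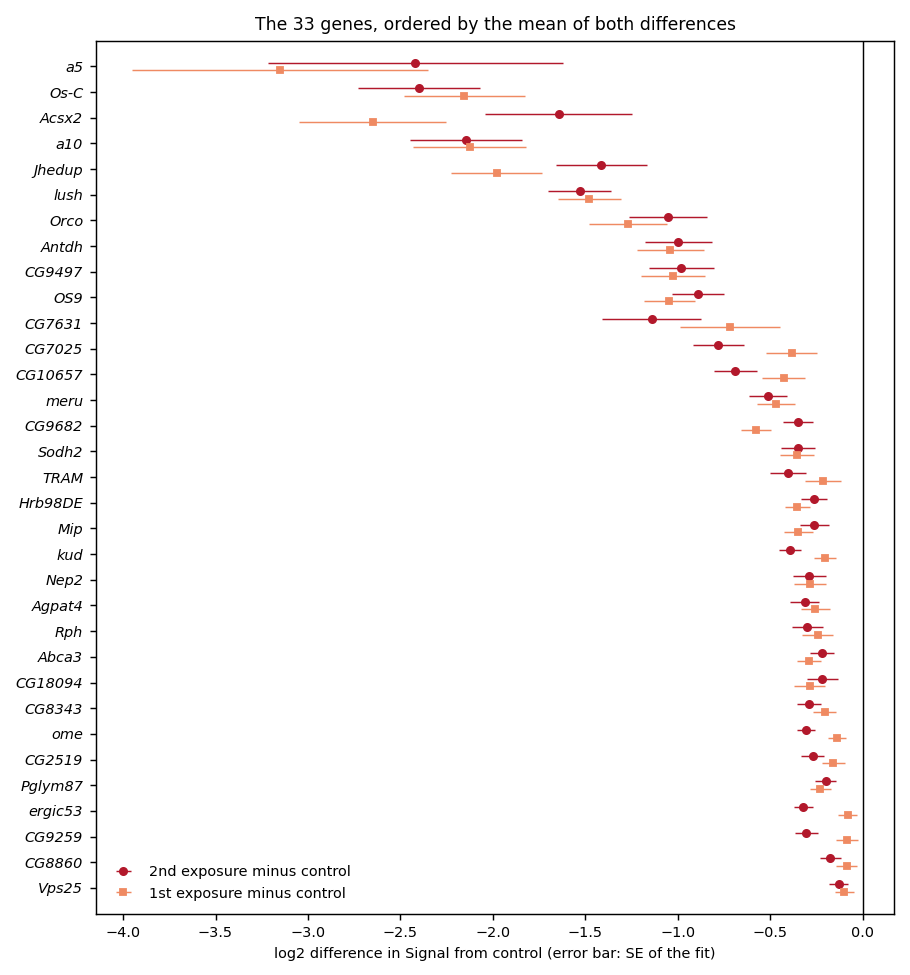
Log2 difference in Signal from control for each of the 33 genes, with circles for the 2nd exposure and squares for the 1st (bars, SE of the fit, n = 5 arrays a treatment). Every point lies left of 0, as the rule requires, and the upper 9 genes lie beyond or near -1 while most others lie between -0.1 and -0.6.

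The genes furthest below control were mostly genes of odour detection and odour breakdown. There were 8 of them (a5, Os-C, a10, Jhedup, lush, Orco, Antdh and OS9), at 21.2% to 53.6% of the control mean after the 2nd exposure and 16.8% to 48.1% after the 1st. a5 encodes an antennal protein of the phosphatidylethanolamine-binding family. It read 53.9, 62.8, 53.2, 74 and 10.1 on the 2nd exposure arrays and 53.1, 49.1, 42.9, 45.2 and 2.1 on the 1st exposure arrays. Control arrays read 223, 214, 169, 262 and 278. The exposed and control arrays did not overlap, and replicate 5 was the lowest array of each exposure and the highest among controls. Its log2 difference was -2.42 after the 2nd exposure and -3.15 after the 1st (SE 0.80 for both), the largest standard error of the 33, with values near the bottom of the scale on both of those arrays. Without replicate 5 of the 2nd exposure the difference after the 2nd was -1.90. Without replicate 5 of the 1st, which read 2.1, the difference after the 1st was -2.25, and that between the exposures, 0.73 with all arrays, was -0.17.

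Os-C, a gene of olfactory sensilla, read 217, 404, 118, 230.2 and 93.7 after the 2nd exposure and 273, 253, 157, 242 and 199.5 after the 1st. Controls read 968, 967, 696, 1032 and 1362. Its mean was 213 ± 123 after the 2nd exposure and 225 ± 46.4 after the 1st, against 1005 ± 238 in controls (SD, n = 5 each). The gene a10, also known as OS-D, encodes a chemosensory protein of the antenna. On the 2nd exposure arrays it read 234, 343, 109, 262 and 136, on the 1st exposure arrays 338, 206, 136, 219.7 and 162, and on control arrays 934, 912, 655, 897 and 1060.1. Os-C was thus at 21.2% of the control mean after the 2nd exposure and 22.4% after the 1st, and a10 at 24.3% and 23.8%.

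The odorant-binding protein lush binds short-chain alcohols and takes part in sensing a male pheromone. It read 92, 124, 65.2, 123 and 75.6 after the 2nd exposure and 109, 91.1, 98.3, 101 and 85.3 after the 1st. In controls it read 309.7, 244, 218, 264 and 321, so that the highest exposed array lay well below the lowest control. The log2 difference was -1.53 after the 2nd exposure and -1.48 after the 1st (SE 0.17 for both). Orco, the coreceptor, was dimmer. It read 50.2, 60.7, 35.1, 60.8 and 32.6 after the 2nd exposure, 61.1, 43.9, 28.2, 38.3 and 35.1 after the 1st, and 96.6, 89.6, 86.2, 105 and 105 in controls. That is 49.6% of control after the 2nd exposure and 42.8% after the 1st. OS9, a gene named as olfactory-specific, read 311, 402, 351, 320.2 and 282 after the 2nd exposure and 325, 319.8, 233, 315 and 302 after the 1st, against 616, 652, 456, 599.6 and 784 in controls. Its means were 53.6% and 48.1% of control after the 2nd and the 1st exposure.

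A pair of antennal enzymes met the rule too. Jhedup is a carboxylesterase related to juvenile hormone esterase and known for breaking down odorant esters. It read 65.9, 119, 66.3, 129 and 85.4 after the 2nd exposure and 81.5, 81.9, 49.3, 42.8 and 57 after the 1st, against 270.4, 241, 158, 259 and 287 in controls. Antdh, a short-chain dehydrogenase of the antenna, read 133, 169, 110.5, 158 and 122 after the 2nd exposure and 124, 174, 112, 151 and 113 after the 1st, against 246, 278, 216, 248 and 413 in controls. Its means were 49.4% of control after the 2nd exposure and 48.1% after the 1st.

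**Figure D2:**
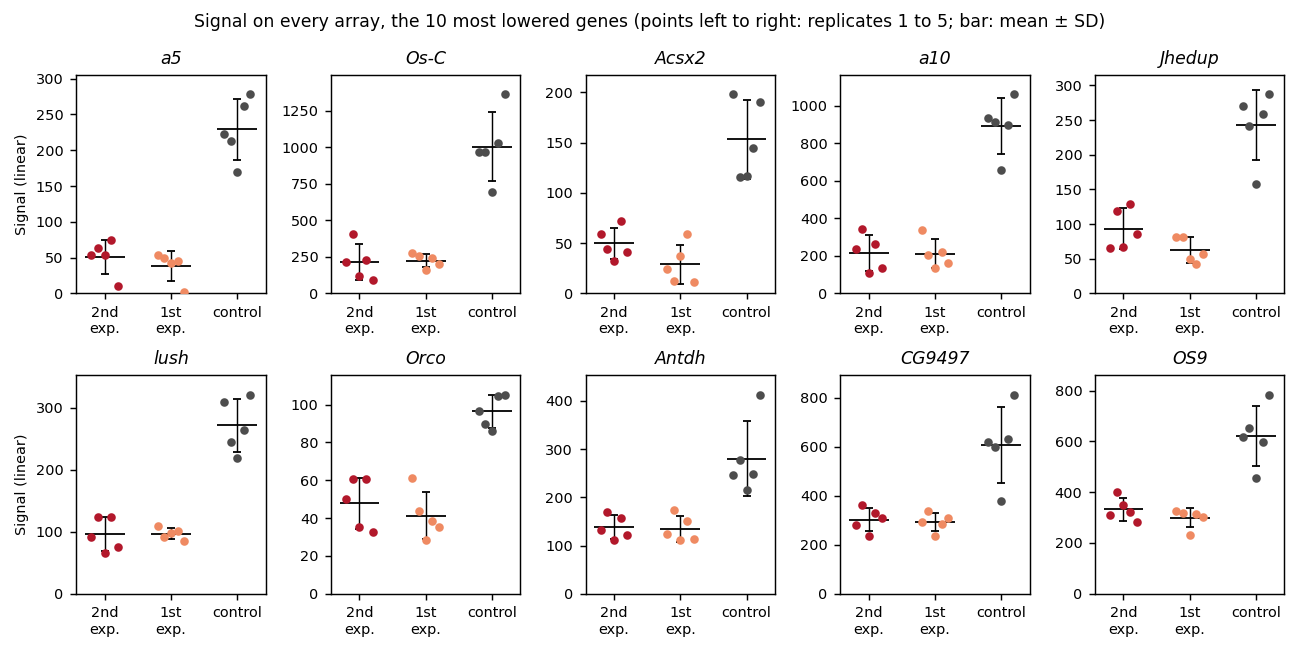
Signal (linear) on each array for the 10 genes with the most negative mean log2 difference, as points for replicates 1 to 5, with the mean and SD. In each panel the 2nd and 1st exposure arrays lie below all 5 control arrays, and control replicate 5 is the highest and replicate 3 the lowest control array in every panel but Acsx2.

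The 10 genes of largest difference shared an order of the control arrays that the rule did not set. In 9 of them control replicate 3 was the lowest control array and replicate 5 the highest. Both held together in 3 of the other 23 genes and in 5.4% of all probe sets tested. Acsx2 was the exception. All 7 genes that a list of 26 antennal genes shared with the rule (a5, Os-C, a10, lush, Orco, Antdh and Jhedup) had this order. So did OS9 and CG9497, a gene given no role here. CG9497 read 281, 360.4, 236, 329.6 and 307 after the 2nd exposure, 291, 336, 238, 286 and 309 after the 1st, and 619, 601, 378, 631 and 813 in controls. The order was also found in 6 of 6 odorant-binding protein probe sets that the rule left out by name (Obp19a with 2 probe sets, Obp19d, Obp28a, Obp69a and Obp83b). Their log2 differences from control were -2.80 to -0.47 after the 2nd exposure and -2.39 to -0.52 after the 1st.

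Averaged over the 7 antennal genes, the geometric mean Signal was 31.9%, 45.5%, 23.1%, 41.4% and 19.3% of the control mean on 2nd exposure replicates 1 to 5. It was 37.3%, 33.2%, 23.8%, 29.2% and 16.9% on those of the 1st exposure, and 103%, 97.6%, 76.4%, 104% and 125% on those of controls. Control replicate 3 was above every exposed array, which the rule sets for each of these genes. The 23 other genes of smaller difference stayed between 75.2% and 78.7% on 2nd exposure arrays, 79.2% and 86.9% on 1st exposure arrays, and 98.4% and 102% on control arrays. The median SD on the log2 scale of the 10 largest was 0.44 after the 2nd exposure, 0.37 after the 1st and 0.31 in controls, against 0.12, 0.11 and 0.07 for the other 23. The rule favours this contrast, since a gene of small difference meets it only where its arrays lie close together. An average over 23 genes also varies less than one over 7. Whether the order of the control arrays has a part in the differences was not tested.

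**Figure D3:**
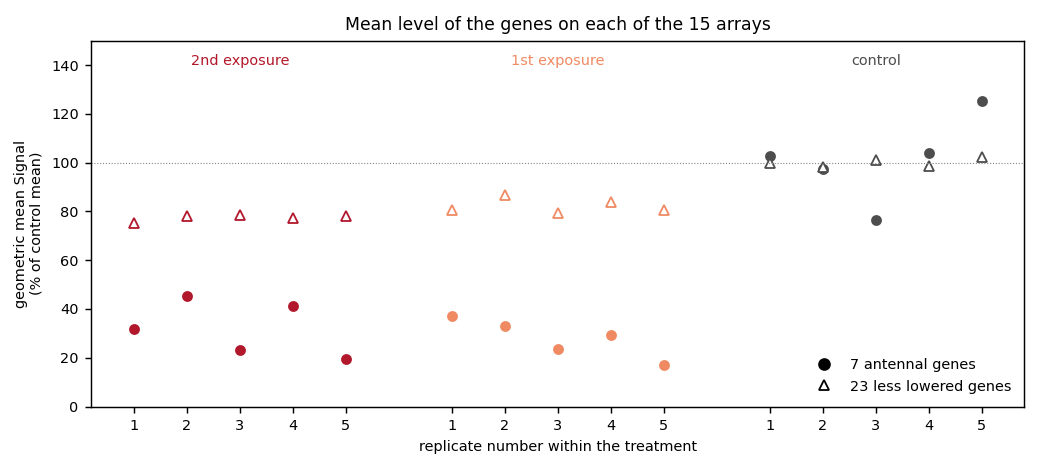
Geometric mean Signal on each of the 15 arrays, as a percentage of the control mean, for the 7 antennal genes (filled circles) and the 23 genes of smaller difference (open triangles). The antennal genes spread from 16.9% to 45.5% on exposed arrays and from 76.4% to 125% on control arrays. The triangles of each treatment lie close together, which the rule favours in genes of small difference.

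Antennal genes outside the rule did not all follow. Of the 26 antennal genes listed, 16 were tested, and 9 of these were not among the 33. After the 2nd exposure none of the 9 passed as lower and 1 passed as higher. This was Pino, a gene first found by a smell-impaired mutant, with a mean of 4657 after the 2nd exposure, 4037 after the 1st and 3298 in controls (log2 difference 0.50, adjusted p = 7.77e-05 after the 2nd, and 0.29, adjusted p = 0.0196 after the 1st, limma). At an unadjusted p under 0.05, 0 of the 9 were lower after the 2nd exposure and 2 after the first. Among all probe sets tested, 6.74% were lower and 9.70% higher at that level in 2nd exposure flies, and 6.59% lower and 3.91% higher in 1st exposure flies. In 1st exposure flies Ir25a, an ionotropic coreceptor, passed as lower (29.7 after the 1st exposure against 57.2 in controls, adjusted p = 0.0449), but not in the fit without 2nd exposure replicate 5, where 0 of the 9 passed as lower. Snmp1, a membrane protein of pheromone-sensing neurons, had 137 after the 2nd exposure, 121 after the 1st and 157 in controls, and did not pass in either. The 6 receptor genes tested besides Orco (Or43a, Or59b, Ir25a, Ir8a, Ir76b and Ir64a) had treatment means of at most 57.2. A list of 11 defining antennal markers also holds odorant-binding proteins. Summed Signal ran from 1034 to 2363 after the 2nd exposure, from 1238 to 1983 after the 1st and from 3877 to 7012 in controls. These ranges did not overlap, which the rule largely sets, since 6 of the 11 genes are among the 33. Without those 6 the sums ran from 543 to 1200, from 664 to 1025 and from 1836 to 3473 in the same order. Of the 5 listed genes that are not among the 33, 4 were called lower after the 2nd exposure and 3 after the 1st. These 5 include Obp28a, Obp69a and Obp83b, which met the rule and were left out by name. The calls and both sums are thus a description.

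Markers of most other tissues did not pass the adjusted threshold. In the lists for testis, accessory gland, eye, flight muscle and Malpighian tubule, leaving out the 1 gene that is among the 33, no gene of 44 tested passed after either exposure (limma). At an unadjusted p under 0.05, 5 of the 44 were lower and 4 higher after the 2nd exposure, and 7 lower and 0 higher in 1st exposure flies. Of these 7, 4 were among the 10 accessory gland genes. The shares of all probe sets tested were 6.74% lower and 9.70% higher after the 2nd exposure, and 6.59% and 3.91% after the 1st. The midgut and fat body lists, with 9 and 8 genes tested, had 0 calls in 1st exposure flies (unadjusted p under 0.05 for 1 midgut gene lower and 1 higher, and for 0 fat body genes lower and 2 higher). In 2nd exposure flies 1 midgut gene was called lower, as were 2 fat body genes, and 1 fat body gene was called higher. The 1 testis-listed gene among the 33 was Pglym87, a phosphoglycerate mutase. It read 369, 373, 348, 359 and 358 after the 2nd exposure, 369, 354, 389.7, 315 and 346 after the 1st, and 413, 429.7, 408, 421 and 401 in controls.

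Genes of metabolism and lipid handling made up 6 of the 33: Acsx2, CG10657, Sodh2, Agpat4, Abca3 and Pglym87. Acsx2, of the acyl-CoA synthetase family, was by far the lowest against control of the 6. It read 58.7, 43.8, 32.2, 71.7 and 41.6 after the 2nd exposure and 24.3, 12.5, 36.9, 58.6 and 11.5 after the 1st, against 198, 116, 117, 144 and 189.9 in controls. Its mean was 32.4% of control after the 2nd exposure and 18.8% after the 1st. The next gene on the chromosome in RefSeq (release 6 of the genome), Acsx3, was at 426 after the 2nd exposure, 481 after the 1st and 585 in controls, and was called lower after the 2nd (log2 difference -0.45, adjusted p = 0.0471).

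CG10657, annotated for retinal binding and transport, averaged 1076 ± 104 after the 2nd exposure and 1289.8 ± 116 after the 1st, against 1752 ± 333 in controls (SD, n = 5 each). Sodh2, a sorbitol dehydrogenase, read 201, 179.9, 203, 199 and 161 after the 2nd exposure, 149, 192, 212, 195 and 192 after the 1st, and 256, 236, 230.2, 231 and 244 in controls. These means were 78.8% and 78.5% of control after the 2nd and the 1st exposure. Of the 7 other genes tested in the list of alcohol and polyol oxidation, which holds Sodh1, Fdh and Aldh-III, none passed as lower after the 2nd exposure. At an unadjusted p under 0.05, 2 of the 7 were lower, where 6.74% of all probe sets tested were. The gene Drat passed as higher (4332 after the 2nd exposure against 3426 in controls, log2 difference 0.34, adjusted p = 0.00252, limma). Agpat4, an acyltransferase of phospholipid synthesis, averaged 1070.1 after the 2nd exposure, 1111 after the 1st and 1325 in controls. Abca3, an ATP-binding cassette transporter, averaged 502, 478 and 584 on the same arrays in the same order.

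Peptidase genes among the 33 were CG7631, CG7025, ome and Nep2, and all 4 had a lower mean after the 2nd exposure than after the 1st. CG7631, annotated as an astacin metalloendopeptidase, read 91.7, 102, 105, 172 and 208 after the 2nd exposure and 134, 252, 99.9, 239 and 188 after the 1st, against 333, 274, 265, 272 and 279.6 in controls. The exposed arrays of both treatments were widely spread, and 1 array of the 1st exposure came close to the lowest control. CG7025, annotated as a metallocarboxypeptidase, read 236, 308, 307, 365 and 286 after the 2nd exposure and 391, 463, 271, 452 and 418 after the 1st, against 498, 482, 538, 537 and 504 in controls. Here only the third array of the 1st exposure lay within the range of the 2nd. The means were 300.5 ± 46.4 after the 2nd exposure and 399 ± 77.1 after the 1st (SD, n = 5 each), against 512 in controls. For the 2nd exposure, the 1st exposure and controls, ome, a dipeptidyl peptidase, averaged 976 ± 52.6, 1098 ± 27.4 and 1207 ± 34.2. Other probe sets of ome had treatment means of at most 36.0 and did not meet the rule. Nep2, a neprilysin that cleaves peptides outside the cell, averaged 346 ± 37.4, 347 ± 34.1 and 421 ± 26.9 in the same order. In the list of 15 astacins and other metallo-peptidases tested, 13 are not among the 33. Of the 13, 3 passed as lower after the 2nd exposure and 1, CG3097, as higher (not without replicate 5 of the 2nd exposure), and 0 passed after the 1st, with 1 lower and 1 higher at an unadjusted p under 0.05. Among the 3, CG15253, an astacin, was at 17.9 after the 2nd exposure, 63.4 after the 1st and 89.5 in controls (adjusted p = 0.00138 for the 2nd). CG8562, a carboxypeptidase, was at 1097 after the 2nd exposure, 1736 after the 1st and 1682 in controls (adjusted p = 0.000493 for the 2nd).

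Genes given a secretory or endosomal role were TRAM, kud, ergic53 and Vps25, and their differences were small. They stood at 76.2% to 91.5% of control after the 2nd exposure and 86.1% to 94.5% after the 1st, and each was lower after the 2nd than after the 1st in its mean. TRAM, a membrane protein of the channel through which chains enter the ER, read 1222, 1459, 1656, 1095 and 1387 after the 2nd exposure and 1421, 1666, 1538, 1621 and 1462 after the 1st, against 1736, 1829, 1685, 1724 and 1975 in controls. Its ratio of lowest control to highest exposed array was 1.01. kud, the fly relative of a subunit of the complex that adds sugar chains to proteins, averaged 1027 ± 91.5 after the 2nd exposure, 1169 ± 37.8 after the 1st and 1344 ± 23.4 in controls (SD, n = 5 each). ergic53, a lectin that carries glycoproteins from the ER towards the Golgi, read 1528, 1492, 1613, 1418 and 1348 after the 2nd exposure and 1760.4, 1755, 1732, 1729 and 1747 after the 1st. Controls read 1838, 1913, 1862, 1770.1 and 1849, just above the 1st exposure arrays and far above those of the 2nd. Vps25, of a complex that sorts membrane proteins at the endosome, averaged 620.2, 633 and 678 after the 2nd exposure, after the 1st and in controls, and had the smallest mean of the 2 log2 differences among the 33.

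**Figure D4:**
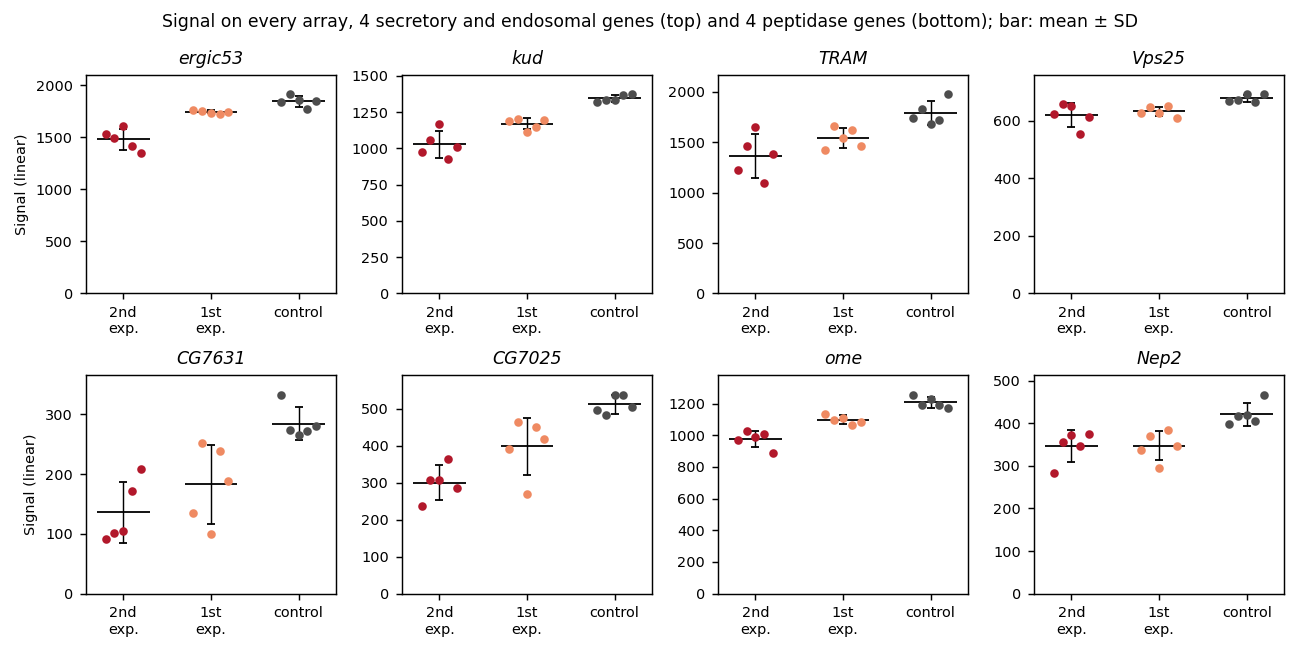
Signal (linear) on each array for 4 secretory and endosomal genes and 4 peptidase genes, as points for replicates 1 to 5, with the mean and SD. The 2nd exposure arrays of ergic53 and ome lie below all of their 1st exposure arrays, and in the other panels the exposures overlap.

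In a list of genes for protein translocation and N-glycosylation, 17 were tested and 16 are not among the 33. After the 2nd exposure 4 of the 16 passed as lower (Spase25, Spase12, Ostgamma and Stt3B), with log2 differences of -0.22, -0.23, -0.22 and -0.29, and 10 of the 16 were lower at an unadjusted p under 0.05, where 6.74% of all probe sets tested were. None passed after the 1st exposure, and 0 were lower or higher at an unadjusted p under 0.05. Spase25 and Spase12 belong to the signal peptidase, Ostgamma and Stt3B to the oligosaccharyltransferase. This count rested on 2nd exposure replicate 5, the array with high yolk genes: without it 1 of the 16, Spase25, passed. Of 12 ER chaperones tested, Fkbp14 and ERp44 passed as lower after the 2nd exposure (log2 -0.26 and -0.23) and Fkbp14 alone without that array. After the 1st exposure 0 of the 12 passed, with 3 lower at an unadjusted p under 0.05, where 6.59% of all probe sets tested were. In the COPI and COPII coats, which bud vesicles between ER and Golgi, 0 of 10 genes passed after either exposure, with 0 lower and 1 higher after the 2nd exposure and 1 lower after the 1st at an unadjusted p under 0.05.

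The remaining genes that were given a role were neural or of mixed function. Mip encodes the precursor of myoinhibiting peptides. It read 268, 261, 299, 234 and 309 after the 2nd exposure, 263, 261, 285, 239.7 and 240.0 after the 1st, and 345, 330.3, 323, 319 and 320.4 in controls. Its controls were close together and its exposed arrays spread more. Of 19 other neuropeptide genes tested, none passed as lower after either exposure (limma), and 1, Proc, passed as higher after the 2nd. At an unadjusted p under 0.05, 0 of the 19 were lower and 3 higher after the 2nd exposure, and 4 lower and 2 higher after the 1st. Of all probe sets tested, 6.74% were lower and 9.70% higher at that level after the 2nd, and 6.59% and 3.91% after the 1st. Rph, a rabphilin of synaptic vesicles, averaged 126 after the 2nd exposure, 132 after the 1st and 155 in controls. Hrb98DE, an RNA-binding protein of the hnRNP family, averaged 522, 489.9 and 624 on the same arrays. A second, brighter probe set of Hrb98DE averaged 2286, 2440 and 2529 there. It did not meet the rule, so the probe sets of this gene disagreed. The means of meru, of the RASSF family of polarity proteins, were 50.5, 52.5 and 72.2. CG8343 is annotated for mannose binding. It read 3529.8, 3901, 3930.0, 3744 and 3972 after the 2nd exposure, 4024, 4056, 4122, 4005 and 3981 after the 1st, and 4223, 5166, 4446, 4381 and 5156 in controls. Each exposure was narrow, and controls held 2 high arrays and 3 lower ones.

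No role was given here to CG9497, CG9682, CG18094, CG2519, CG9259 and CG8860. CG9682 averaged 667 after the 2nd exposure, 572 after the 1st and 850.0 in controls. The means of CG18094 were 134, 129 and 156, and those of CG2519 533, 575 and 642, on the same arrays. CG9259 read 2366, 2158, 2619.5, 2183 and 2174 after the 2nd exposure, 2666, 2711, 2688, 2679.7 and 2607 after the 1st, and 2744, 2758, 2883, 2724 and 3065 in controls. CG8860 read 2164, 2289.8, 2506, 2104 and 2487 after the 2nd exposure, 2439, 2502, 2437, 2486 and 2386 after the 1st, and 2679, 2573, 2618, 2520.4 and 2619 in controls. Both sat at the edge of the rule.

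The closest calls of the rule were CG9259, ergic53 and CG8860, whose lowest control was 1.005, 1.006 and 1.006 times the highest exposed array. Just outside lay Stt3B, etaTry and mask, at 0.999, 0.998 and 0.996. Stt3B, a catalytic subunit that adds sugar chains, read 1549, 1723, 1915, 1359.9 and 1518 after the 2nd exposure, 1789, 1792, 1871, 1838 and 1857 after the 1st, and 1988, 2006, 1974, 1913 and 1925 in controls. The digestive protease gene etaTry read 394, 417, 445, 448 and 494 after the 2nd exposure, 512, 518, 509, 505 and 517 after the 1st, and 585, 517, 581, 536 and 588 in controls. For mask the highest exposed array was 1015 and the lowest control 1011. In all 3 of these genes, 1 exposed array reached into the range of the controls.

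The rule did not use the difference between the exposures, which was tested across all probe sets. It did bound the highest array of both exposures, so the spread within each exposure is not free of the selection. Of the 33 genes, 1 was called lower after the 2nd exposure than after the 1st, where 0.645% of all probe sets were called lower, 1.12% higher and 1.76% either way. None of the 33 was called higher (limma), with 3 higher at an unadjusted p under 0.05. The 1 gene was ergic53, with a log2 difference of -0.24 (SE 0.05, adjusted p = 0.0321, limma), a mean of 1479.8 ± 102 after the 2nd exposure and 1745 ± 13.8 after the 1st (SD, n = 5 each). All 5 arrays of the 2nd exposure lay below all 5 of the 1st. With the replicate number as a block the adjusted p was 0.0658, and the call was lost. It was also lost when any single array of the 1st exposure, or replicate 1, 2, 4 or 5 of the 2nd, was left out (adjusted p = 0.0513 to 0.0778 over these 9), and the log2 difference without replicate 5 of the 2nd exposure was -0.21. A second probe set for ergic53 averaged 2394 after the 2nd exposure and 2355 after the 1st (log2 difference 0.02, adjusted p = 0.898), so the probe sets of this gene disagreed, and it did not meet the rule, with 2579 ± 186 in controls.

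At an unadjusted p under 0.05, 9 of the 33 genes differed between the exposures (27.3%), beside 15.6% of all probe sets tested. They were 6 lower after the 2nd exposure (ergic53, CG9259, ome, kud, CG7025 and CG10657) and 3 higher (CG9682, Acsx2 and Jhedup). The adjusted p was 0.0903 for CG9259, 0.105 for ome, 0.132 for kud, 0.179 for CG7025 and 0.292 for CG10657, so that none of these passed. CG9259 and kud passed without replicate 3 of the 2nd exposure (log2 difference -0.27 and -0.24), and CG7025 without replicate 3 of the 1st (-0.53). The adjusted p was 0.199 for CG9682, 0.233 for Acsx2 and 0.277 for Jhedup. For Acsx2 the log2 difference was 1.01 with a 95% interval from 0.15 to 1.86, and for Jhedup 0.57 with one from 0.04 to 1.09. On the scale of log2(Signal + 50), which shrinks differences at low Signal, they were 0.36 for Acsx2 and 0.34 for Jhedup, and Acsx2 read as low as 11.5 after the 1st exposure. In 3 of the 33 genes (CG8343, ergic53 and ome) the 2nd exposure arrays lay below every 1st exposure array, beside 1.48% of all tested. They lay above in 0 of the 33, where 3.39% of all probe sets tested did. The median log2 SD was 0.12 and 0.11 (2nd and 1st exposure) in the 23 genes of smaller difference. It was 0.44 and 0.37 in the 10 largest and 0.18 and 0.17 over all probe sets tested. These shares are therefore no like-for-like background.

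For the genes of odour detection the arrays gave no difference between the exposures that passed, and the intervals tell how large one could be. For lush the log2 difference was -0.05 (95% interval -0.42 to 0.32), for Orco 0.21 (-0.24 to 0.66), for a10 -0.02 (-0.67 to 0.63), for Antdh 0.04 (-0.35 to 0.43) and for OS9 0.16 (-0.14 to 0.45). For Os-C it was -0.25 (-0.95 to 0.46), and a5 had the widest interval, -0.98 to 2.45. In 29 of the 33 genes the interval lay within 1 log2 unit of 0. The median difference over the 33 genes was -0.03, beside 0.03 over all probe sets tested.

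**Figure D5:**
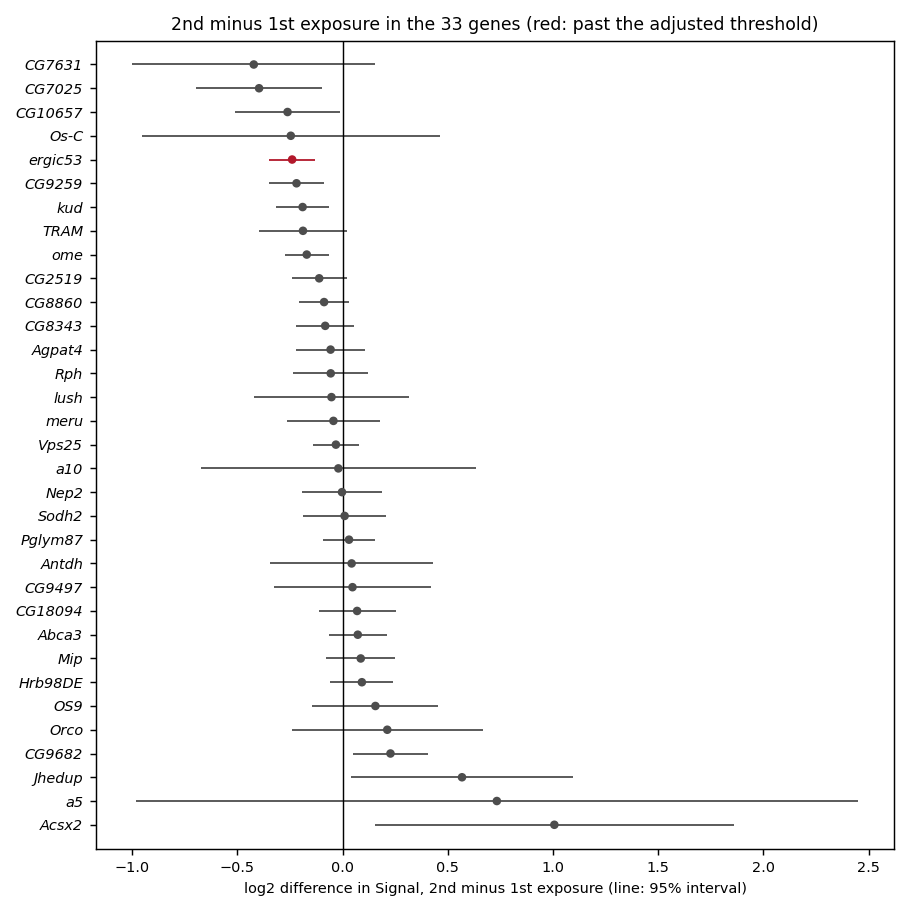
Log2 difference in Signal, 2nd minus 1st exposure, with its 95% interval for each of the 33 genes, in order of size. ergic53, at -0.24, is the 1 gene past the adjusted threshold, and a5 and Acsx2 have the widest intervals.

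Of the 33 genes, 7 lay on chromosome arm 2L, 4 on 2R, 9 on 3L, 9 on 3R and 4 on X. These arms held 18.6%, 20.4%, 19.2%, 24.8% and 15.9% of the eligible probe sets in the same order. Of 53 tested genes that lie next to one of them in RefSeq, 0 are among the 33. The neighbours had a median log2 difference of 0.01 after the 2nd exposure and 0.01 after the 1st. Of the 53, 3 were called lower and 1 higher after the 2nd, and 0 lower and 1 higher after the 1st (limma). Among all probe sets tested, 1.21% were called lower and 2.42% higher after the 2nd exposure, and 0.188% and 0.174% after the 1st. The 3 called lower were Acsx3 beside Acsx2, CG18585 beside CG7025, and Jhe, the esterase gene beside Jhedup. Jhe averaged 68.1 after the 2nd exposure, 126 after the 1st and 147 in controls (adjusted p = 0.00222 for the 2nd, limma). In a list of the alpha-esterase cluster that holds Jhedup, 9 other genes were tested. After the 2nd exposure 2 of the 9 were called higher and 1 lower, and 0 after the 1st. TSG101, beside kud, was called higher after both exposures (2803 after the 2nd, 2740 after the 1st and 1921 in controls).

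Over all 17 lists of genes of related function, which hold 12 of the 33, 184 genes that are not among the 33 were tested. After the 2nd exposure 24 of them were called lower and 10 higher, and after the 1st 1 lower and 1 higher. The shares of all probe sets tested were 1.21% lower and 2.42% higher after the 2nd exposure, and 0.188% and 0.174% after the 1st. Many of the 17 lists hold none of the 33. All lists were chosen with earlier results of these data known, so the counts are a description. Without replicate 5 of the 2nd exposure, 20 of the 184 were called lower and 8 higher after the 2nd, and 0 lower and 1 higher after the 1st. Of all 13809 probe sets, 135 were then called lower and 235 higher after the 2nd, and 20 and 16 after the 1st.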

How the data were processed

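RNA of 15 pools of whole Canton-S B males was read on 15 arrays, 5 for each treatment. The authors computed the deposited Signal intensity with Microarray Suite 5 and scaled each array, and the linear values were used as deposited. Probe sets were named through the platform annotation, with symbols updated in RefSeq (13646 with 1 symbol, 402 with several, 4904 with none or not listed). The 183 hybridization controls were left out, and the 13809 probe sets whose Signal averaged 20 or more entered a linear model of log2(Signal) in R 4.3.3 (limma 3.58.1), with 1 mean per treatment, empirical Bayes and Benjamini-Hochberg adjustment at 0.05. This number of arrays limits the precision, and p-values measure the spread between pools. A listed gene was read by its brightest probe set. The members and lists were chosen with earlier results of these data known. Values on every array are given for the 10 genes of largest difference, the 5 of highest control Signal, those past the threshold between the exposures, those in a list, and those at the edge of the rule. On simulated data for the 2nd exposure against control, steps of 0.5, 1, 2 and 3 log2 units, given to 50 probe sets each, came back as calls in 48%, 82%, 92% and 96%, and 0.0294% of 13609 unchanged ones were called. The simulated noise was independent for each probe set and array, so these rates leave out any spread that probe sets share on an array. Alternatives were quantile normalization, equalised medians, log2(Signal + 50), other filters, eBayes trend, a replicate block, 2 treatments at a time, a residual component, linear Signal, a mean over a gene's probe sets and each array left out. A further 3 were chosen after seeing the data: dropping replicates 4 and 5 of the 2nd exposure at once, averaging the nearest arrays, and counting the lists with replicate 5 of the 2nd exposure dropped. Python 3.11.15 served for tables (with pandas 2.3.3 and numpy 2.4.6) and matplotlib 3.10.9 for plots.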

Additional observations from a re-analysis of the deposited data

Results flagged for a closer look

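In 5 of 99 groups of 5 arrays (33 genes in 3 treatments), 1 array lay far from the other 4, where chance gives about 1 in 20. For a5, replicate 5 of the 1st exposure read 2.1, against 42.9 to 53.1 on the others. For OS9, replicate 3 of the 1st exposure read 233, against 302 to 325. For CG7631, control replicate 1 read 333, against 265 to 279.6. For Hrb98DE, control replicate 5 read 659, against 609 to 622. For Rph, control replicate 2 read 174.5, against 148 to 154.

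ergic53 differed between the exposures, with a log2 difference of -0.24, 2nd minus 1st exposure (adjusted p = 0.0321, limma). All 5 arrays of the 2nd exposure lay below all 5 of the 1st. Its other probe set gave 0.02 (adjusted p = 0.898). The cause of the disagreement was not tested.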

How the results depend on the processing

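The number of genes that meet the rule depends on single arrays, since each array adds a condition. It was 33 with all arrays and 35 to 66 with 1 left out, and it passed 1.5 times the first value without control replicate 2 (66), 3 (54), 4 (51) or 5 (54). It was 54 after averaging nearest arrays, a setting chosen after seeing the data. Leaving out an array can only relax the rule, so that keeping the 33 then is no sign of stability. Of the 33 genes, 20 met the rule with equalised array medians (22 genes) and 29 with quantile normalization (36 genes). The antennal genes among them numbered 6 to 8 over the 22 settings run. Genes called lower after the 2nd than after the 1st exposure numbered 1, but 4 with equalised medians, 5 with a covariate taken from the main component of the residuals, 3 on linear Signal, 0 with no filter, 0 with 2 treatments at a time, 0 without 2nd exposure arrays 4 and 5, 0 with the nearest arrays averaged, and 0 to 3 with 1 array left out. ergic53 passed in 13 of 27 settings (adjusted p = 0.0039 to 0.157, limma). With equalised medians CG9259, ome and kud also passed, with log2 differences of -0.32, -0.27 and -0.29. None of the 33 was called higher under any of the 27. The median log2 difference between the exposures moved to -0.13 with equalised medians and to -0.05 to 0.00 (0.00097 before rounding) with 1 array left out. The medians against control stayed between -0.39 and -0.29 in all settings run. The causes of these shifts were not tested.

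By the study's methods the 3 pools of a replicate came from the same starting flies, while the labels do not say that a number from 1 to 5 marks them. Residuals correlated at only -0.0731 to 0.0982 between same-numbered arrays, and for 3 of 15 arrays the closest other array bore the same number, so the values do not show the pairing. With the replicate block, 0 of the 33 genes were called lower after the 2nd than after the 1st exposure, and 0 higher. The call of ergic53 was lost (adjusted p = 0.0658, limma), and no other call between the exposures among the named genes was altered.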
